A study of Mus musculus with 2 samples.

Results

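Chemokines are small secreted or membrane-anchored proteins that guide migrating cells, and their receptors are proteins of the cell surface that pass through the membrane several times. The genes described here are the protein-coding genes listed in both gene tables whose mouse GENCODE symbol is that of a CC, CXC, CX3C or XC chemokine, of a chemokine receptor or of an atypical chemokine receptor. The rule used the names only, with no measured value, and found 60 genes among 43346 Ensembl gene entries, of which 21474 were protein-coding. They were 37 ligands, 18 signalling receptors and 5 atypical receptors, with Ccrl2 counted among the last. The data were 2 total RNA-seq libraries of whole intestine from mouse embryos labelled healthy of strain B6NCrl at embryonic day 15.5; the labels name no treatment and there was no second group. Replicate 1 came from a pool of 78 embryos and replicate 2 from a pool of 62 embryos, each pool of mixed sex, so the 2 values of a gene show the spread between pools and not between animals. No comparison of conditions was possible, and the results are levels, their order, and the difference between the libraries.

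Chemokines bind receptors coupled to inhibitory G proteins, which turn a gradient of ligand into directed movement. Homeostatic chemokines such as Cxcl12, Ccl21a, Cxcl13 and Ccl25 are made constantly by stromal or epithelial cells and place blood progenitors and lymphocytes in tissues, whereas inflammatory chemokines such as Cxcl1, Cxcl2 and Ccl3 are induced by infection or injury. Atypical receptors bind chemokines without starting the usual signal and remove, carry or present them. In the fetal gut, Cxcl13 and the Ccl21 proteins are known for the gathering of lymphoid tissue inducer cells, and Ccl25 is known as a chemokine of the small intestinal epithelium.

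A gene was called detected where it reached at least 1 TPM (a level scaled by transcript length and library size) in both libraries. By that limit, 27 of the 60 genes were detected, 18 of 37 ligands, 5 of 18 signalling receptors and 4 of 5 atypical receptors, against a background of 62.7% of all protein-coding genes. The other 33 lay below 1 TPM in both libraries, so no member was above the limit in only 1 library. Of the detected genes, 11 reached 10 TPM in both libraries, and they were 10 ligands and the atypical receptor Ackr3. The share of all protein-coding genes that reach 10 TPM was not computed. The median of mean TPM was 7.94 over the 27 genes and 17.8 over all detected protein-coding genes. Ligands summed to 537.85 TPM in replicate 1 and 551.81 TPM in replicate 2, signalling receptors to 23.64 and 24.27 TPM, and atypical receptors to 18.08 and 17.4 TPM. The ligand sum was thus far above the receptor sums in each library. The typical member did not differ in that way. Over all members, detected or not, the median of mean TPM was 0.52 for ligands, 0.505 for signalling receptors and 1.95 for atypical receptors. The 5 highest genes carried 69.1% of the summed TPM of all 60 in replicate 1 and 70.3% in replicate 2. When the 27 were ordered by mean TPM, the ranges of 13 of the 26 neighbouring pairs did not overlap and those of the other 13 did. In whole tissue, fewer cells of a type and less RNA per cell cannot be told apart.

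**Figure D1:**
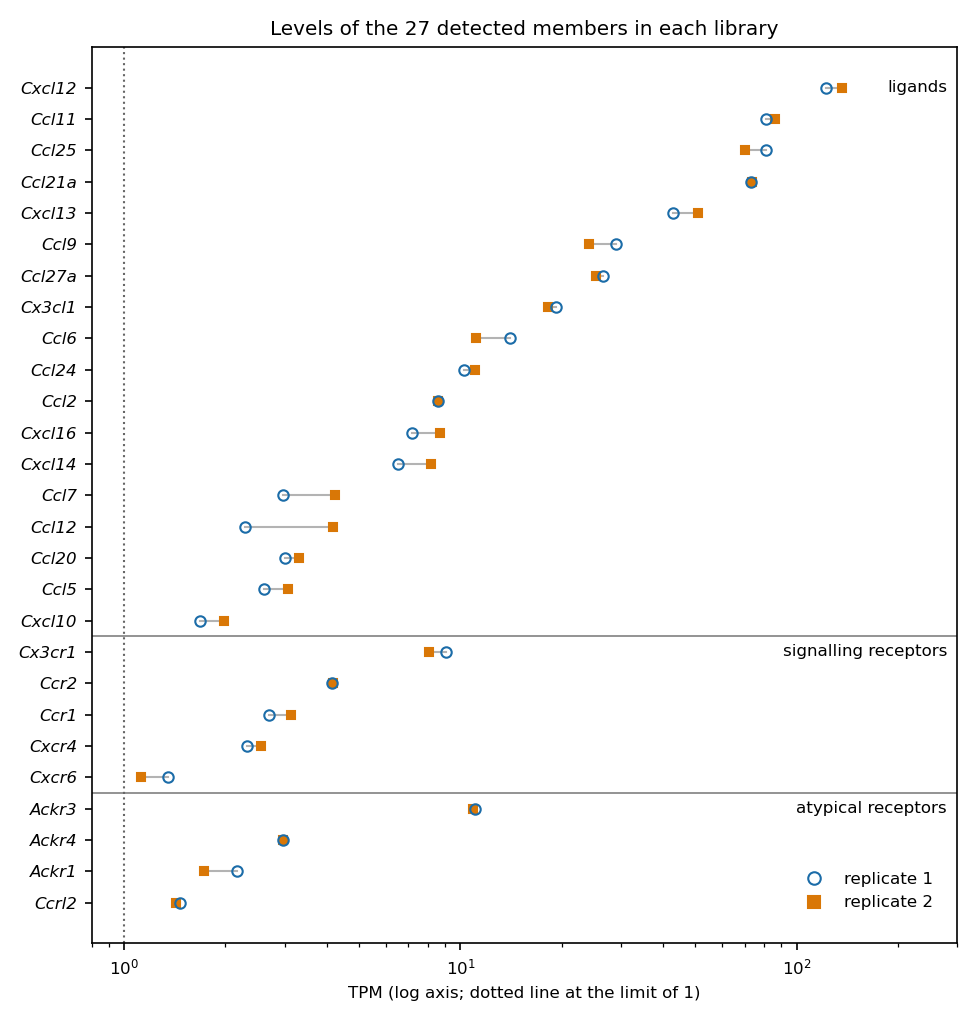
TPM (log axis) of the 27 genes detected in both libraries, grouped as ligands, signalling receptors and atypical receptors and ordered by mean; open circles are replicate 1 and filled squares replicate 2. Cxcl12 is at the top with 122.3 and 136.45 TPM, no signalling receptor reaches 10 TPM, and Ackr3 is the highest of the atypical receptors.

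Cxcl12, the stromal chemokine that retains progenitor cells and directs migrating neurons and vessels, was the highest member in each library, at 122.3 TPM in replicate 1 and 136.45 TPM in replicate 2 (129 ± 10.0, SD, n = 2). It stood at the 90.97 percentile of all detected protein-coding genes by mean TPM and alone made up 21.1% and 23.0% of the summed TPM of the 60 genes. Its range did not overlap that of the next gene, Ccl11. The gene lies at chr6:117168535-117181367 on the plus strand of mm10. Its RefSeq promoter window, 250 bases before to 50 after the start in GRCm38.p6, chr6:117168285-117168584, is shown because it is rich in CpG, with 20 CpG pairs in capitals and no match to TATAAA.
Cxcl12 promoter: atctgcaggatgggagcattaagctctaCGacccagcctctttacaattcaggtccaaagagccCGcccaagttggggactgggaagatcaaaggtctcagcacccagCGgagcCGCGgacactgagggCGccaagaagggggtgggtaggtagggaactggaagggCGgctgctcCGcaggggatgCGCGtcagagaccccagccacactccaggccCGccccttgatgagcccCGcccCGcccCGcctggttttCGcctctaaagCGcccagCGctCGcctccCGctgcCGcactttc

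Ccl11, or eotaxin, which draws eosinophils and is made in the gut outside of inflammation, was listed at 80.96 and 86.14 TPM. Ccl25, the epithelial chemokine of the small intestine, was listed at 81.05 and 70.23 TPM. Ccl21a, the ligand for Ccr7 made by lymphatic vessels and lymphoid stroma, was listed at 73.17 and 73.78 TPM. The ranges of Ccl11 and Ccl25 overlapped, as did those of Ccl25 and Ccl21a, so the order within these neighbours is not set by the data. Cxcl13, which gathers cells bearing Cxcr5 where lymphoid tissue forms, was lower than all 3, at 42.98 and 50.76 TPM.

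Ccl25 has annotated starts in separate places 24378 bases apart on the plus strand of chromosome 8, and nearly all of its signal was assigned to the downstream one. The 2 transcripts that start at position 4349588 held 92.8% of the gene's TPM in replicate 1 and 92.0% in replicate 2, as 75.25 and 64.61 TPM. The 6 transcripts with starts between 4325210 and 4325241 held 7.17% and 8.0%, as 5.81 and 5.62 TPM. Ccl25 as a gene overlaps Elavl1, which codes for an RNA-binding protein on the opposite strand and was at 57.74 and 66.22 TPM. The sources do not give whether the authors' counting used strand, so reads of the 2 genes where they overlap may not be told apart. Both RefSeq windows are shown because they differ in kind. The upstream window, chr8:4324960-4325259 in GRCm38.p6, holds 52 CpG pairs, in capitals, and the downstream window, chr8:4349338-4349637, holds 1 CpG and, in capitals, TATAAA at 16 to 11 bases before the start and CATAAA at 192 to 187 bases before it.
Ccl25 upstream window: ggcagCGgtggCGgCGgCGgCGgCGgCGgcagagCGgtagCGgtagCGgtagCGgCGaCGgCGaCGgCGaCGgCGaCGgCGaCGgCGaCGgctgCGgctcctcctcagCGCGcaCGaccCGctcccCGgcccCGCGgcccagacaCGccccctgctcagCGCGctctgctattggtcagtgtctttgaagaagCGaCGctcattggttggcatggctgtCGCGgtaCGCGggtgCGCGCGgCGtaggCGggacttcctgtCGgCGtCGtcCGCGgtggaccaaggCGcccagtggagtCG
Ccl25 downstream window: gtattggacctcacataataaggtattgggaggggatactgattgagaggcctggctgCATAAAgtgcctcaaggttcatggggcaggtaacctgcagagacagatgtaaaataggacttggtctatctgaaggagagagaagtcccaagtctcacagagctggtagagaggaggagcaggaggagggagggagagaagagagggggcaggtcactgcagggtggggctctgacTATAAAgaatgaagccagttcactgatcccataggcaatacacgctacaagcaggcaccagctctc
The RefSeq window of Cxcl13, chr5:95956689-95956988 on the plus strand, is of the second kind. It has 3 CpG pairs, TATAAA at 46 to 41 bases before the start and CATAAA at 170 to 165 bases before it, both in capitals.
Cxcl13 promoter: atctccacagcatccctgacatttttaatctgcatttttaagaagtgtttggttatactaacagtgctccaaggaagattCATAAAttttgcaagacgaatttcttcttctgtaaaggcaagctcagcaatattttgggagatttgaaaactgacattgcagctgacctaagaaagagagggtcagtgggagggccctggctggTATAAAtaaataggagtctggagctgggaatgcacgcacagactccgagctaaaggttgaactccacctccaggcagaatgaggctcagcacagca

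Ccl9 and Ccl6, CC chemokines of rodents that are made by myeloid cells and signal through Ccr1, were listed at 28.97 and 24.17 TPM and at 14.05 and 11.14 TPM. Ccl27a, a chemokine of surface epithelia, was listed at 26.6 and 25.3 TPM, and its range lay within that of Ccl9. Cx3cl1, or fractalkine, which sits on endothelial and epithelial cells through a mucin stalk, was listed at 19.21 and 18.16 TPM. These 4 genes were all lower than Cxcl13 in each library. Ccl24, a second ligand of the eotaxin receptor, was the last ligand above 10 TPM, at 10.28 and 11.05 TPM.

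The monocyte-attracting ligands of Ccr2 were low but above the limit. Ccl2 was listed at 8.6 and 8.55 TPM, Ccl7 at 2.97 and 4.24 TPM, and Ccl12 at 2.29 and 4.17 TPM. Ccl7 and Ccl12 overlapped in range, and Ccl2 was above both in each library. Cxcl16, the other chemokine on a transmembrane stalk, was listed at 7.17 and 8.71 TPM, and Cxcl14, a chemokine of epithelia and stroma with a debated receptor, at 6.54 and 8.19 TPM. Ccl20, the ligand of Ccr6 made by epithelium over lymphoid follicles, was listed at 3.0 and 3.3 TPM. Ccl5, a chemokine of activated lymphocytes, was listed at 2.6 and 3.06 TPM and Cxcl10, which interferon induces, at 1.68 and 1.98 TPM. These last 3 genes rested on 27 to 66 estimated counts a library.

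The 19 ligands below the limit included 5 CXC ligands known for drawing neutrophils, while Ppbp, another such ligand that its symbol leaves outside the 60 genes, was at 2.13 and 2.23 TPM. Cxcl1 was listed at 0.29 and 0.50 TPM, Cxcl2 at 0.04 and 0.08, Cxcl3 at 0.09 and 0.12, Cxcl5 at 0.27 and 0.18, and Cxcl15 at 0.14 and 0.16. Ccl3 and Ccl4, the macrophage inflammatory proteins, were at 0.56 and 0.48 TPM and at 0.30 and 0.32 TPM. Ccl19, the other ligand of Ccr7, was at 0.23 and 0.16 TPM, and Ccl28, a mucosal chemokine of the adult colon, at 0.16 and 0.22 TPM. Cxcl9, Cxcl17, Ccl17, Ccl22 and Xcl1 also lay below 1 TPM, and the highest of their values was 0.69 TPM for Xcl1 in replicate 1, from 7 counts, with none in replicate 2. Ccl1, Ccl8, Ccl21b, Ccl26 and Ccl27b were listed at 0 in both libraries. A count of 3 was taken as a working floor for a count of 0, and it is not a hard maximum. It would give Ccl8 a level of 0.304 TPM in replicate 1 and 0.261 TPM in replicate 2, and Ccl26 levels of 0.684 and 0.587 TPM. A count of 0 does not tell lower levels from none, counting error alone considered.

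Among the signalling receptors, those of macrophages and monocytes stood highest. Cx3cr1, the fractalkine receptor carried by tissue macrophages, was listed at 9.07 and 8.06 TPM (8.57 ± 0.714, SD, n = 2). Ccr2, which brings monocytes from the marrow to tissues, was listed at 4.15 and 4.17 TPM, and Ccr1, a receptor of monocytes and other myeloid cells, at 2.7 and 3.13 TPM. The 3 ranges did not overlap. Cxcr4, the receptor of Cxcl12, was listed at 2.32 and 2.56 TPM and Cxcr6, the receptor of Cxcl16, at 1.35 and 1.12 TPM.

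Below the limit were 13 of the 18 signalling receptors. Cxcr5, the receptor of Cxcl13, was listed at 0.66 and 0.63 TPM, Ccr9, the receptor of Ccl25, at 0.45 and 0.63 TPM, and Ccr7, the receptor of Ccl21a, at 0.36 and 0.72 TPM. Each of these 3 was supported by 16 to 54.22 estimated counts a library. The part of other genes in the counts of Ccr9 was not tested. Ccr9 shares 21.7% of its 31-base words with other genes, chiefly AC165425.1 (18.2%), which was listed at 0 TPM in both libraries. By position, Ccr9 also overlaps Gm17200 on the same strand (1.5 and 1.37 TPM). On the opposite strand it overlaps Lztfl1 (33.26 and 38.26 TPM) and Slc6a20a (16.48 and 14.1 TPM). Cxcr3 was listed at 0.41 and 0.53 TPM, Ccr6 at 0.38 and 0.42, Ccr10 at 0.21 and 0.31, and Ccr3, the eotaxin receptor, at 0 and 0.08 from 0 and 7 counts. Ccr4, Ccr8, Cxcr2, Cxcr1 and Xcr1 were also below the limit, and the highest of their values was 0.37 TPM, for Ccr4 in replicate 2.

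Atypical receptors were few and mostly detected. Ackr3, which takes up Cxcl12 and shapes its gradients, was listed at 11.03 and 10.88 TPM and was above every signalling receptor in each library. Ackr4, which removes Ccl21, Ccl19 and Ccl25, was listed at 2.96 TPM in both. Ackr1, which carries chemokines across small veins and on red cells, was listed at 2.17 and 1.73 TPM and Ccrl2, which presents chemerin, at 1.47 and 1.43 TPM. Ackr2, a scavenger of inflammatory CC chemokines on lymphatic vessels, was below the limit at 0.45 and 0.40 TPM. Other genes at the same place or with the same words may limit several receptor values, which was not tested. Ackr1 shares 23.0% of its 31-base words with the neighbouring Cadm3 (1.99 and 1.81 TPM). Ackr4 shares 8.14% with other genes, chiefly Acad11 on the opposite strand (20.44 and 18.52 TPM). Cxcr6 overlaps Fyco1 on the opposite strand (9.81 and 9.61 TPM). Cx3cr1 overlaps Gorasp1 on the same strand (25.16 and 24.09 TPM), Csrnp1 on the same strand (3.04 and 3.0 TPM) and Wdr48 on the opposite strand (30.59 and 33.93 TPM). Cxcr5 lies opposite Bcl9l (4.11 and 4.08 TPM) and Ccr10 opposite Cntnap1 (0.86 and 0.68 TPM). These overlaps of Cxcr6, Cx3cr1, Cxcr5 and Ccr10 are of gene positions, and few transcript words are shared. Cxcr6 and Ccr10 shared 0% of their 31-base words with other genes, Cxcr5 2.42% and Cx3cr1 3.28%.

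Ligands were detected more often than their receptors when textbook pairs were set side by side. Of 36 listed pairs, 34 had both partners among the 60 genes. Both partners were detected in 9 pairs, only the ligand in 9, only the receptor in 0, and neither in 16. In 7 of the 9 pairs with both detected, the ligand was higher in both libraries. Cxcl12 exceeded Cxcr4 52.7-fold in replicate 1 and 53.3-fold in replicate 2, and exceeded Ackr3 11.1-fold and 12.5-fold. Cx3cl1 exceeded Cx3cr1 by only 2.12-fold and 2.25-fold, and Ccl2 exceeded Ccr2 by 2.07-fold and 2.05-fold. Ccl9 exceeded Ccr1 10.7-fold and 7.72-fold, Ccl6 exceeded Ccr1 5.20-fold and 3.56-fold, and Cxcl16 exceeded Cxcr6 5.31-fold and 7.78-fold. The exceptions were Ccl7 and Ccl12, which stood at 0.716 and 0.552 of the Ccr2 level in replicate 1 and at 1.02 and 1.00 in replicate 2. Levels of RNA per length say nothing of protein, and the ligand and its receptor can be made by different numbers of cells.

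In the 9 pairs with only the ligand detected, high ligands faced receptors under 1 TPM. Ccl25 exceeded Ccr9 by 180-fold and 111-fold, Ccl21a exceeded Ccr7 by 203-fold and 102-fold, and Cxcl13 exceeded Cxcr5 by 65.1-fold and 80.6-fold. Ccl27a exceeded Ccr10 by 127-fold and 81.6-fold. The lower of these ligands were closer to their receptors, with Ccl20 over Ccr6 at 7.89-fold and 7.86-fold and Cxcl10 over Cxcr3 at 4.10-fold and 3.74-fold. Ccl11 and Ccl24 faced Ccr3, which was listed at 0 in replicate 1, so no ratio is given for it. Pairs in which neither partner was detected included Cxcl1, Cxcl2, Cxcl3 and Cxcl5 with Cxcr2, Ccl17 and Ccl22 with Ccr4, Ccl1 and Ccl8 with Ccr8, and Xcl1 with Xcr1.

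**Figure D2:**
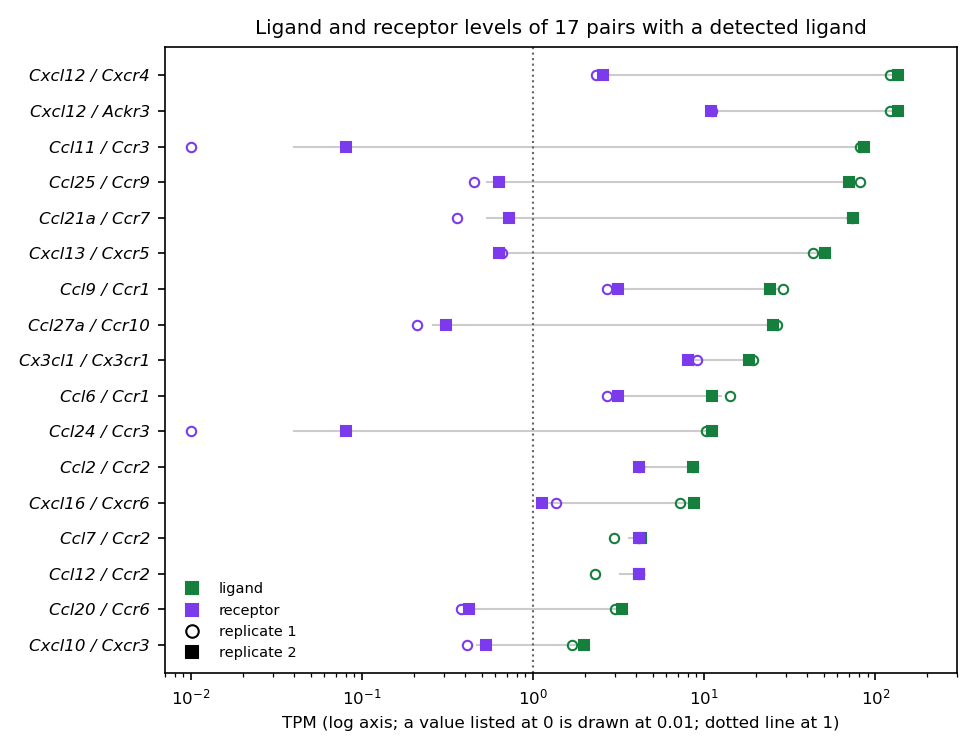
TPM (log axis) of the ligand (green) and the receptor (purple) of 17 pairs whose ligand was detected; open circles are replicate 1, filled squares replicate 2, and a value listed at 0 is drawn at 0.01. In 8 pairs the receptor lies left of the dotted line at 1 TPM, while every ligand lies right of it.

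Ccl21a has near-identical copies on chromosome 4, and the level of the group was steadier than its split among the copies. Ccl21a itself (chr4:42772860-42773993, minus strand) was listed at 73.17 and 73.78 TPM. Its copy Gm21541 (chr4:41903610-41904743, plus strand) was listed at 26.27 TPM in replicate 1 and 13.47 TPM in replicate 2, and Gm13304 (chr4:42114817-42115917, plus strand) at 0 and 12.03 TPM. Ccl21b and Gm10591 were listed at 0 in both libraries. Summed over the 5 entries, the group stood at 99.44 and 99.28 TPM (99.4 ± 0.113, SD, n = 2), and the 4 copies other than Ccl21a at 26.27 and 25.5 TPM. Ccl21a held 73.6% and 74.3% of the group. Gm21541 alone carried the signal of the copies in replicate 1 and shared it nearly evenly with Gm13304 in replicate 2, while their sum moved little.

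The transcripts of Ccl21a and Gm21541 differ at 6 of 870 bases, of which 2 fall in the 402 coding bases. The coding sequences of the 4 copies are identical to each other, and each differs from Ccl21a by T84A and C194T, counted from 1 at the A of the start codon. The 41 bases around each position are shown, on the coding strand from the GENCODE transcripts, because within the coding sequence only reads that cross one of these positions can separate Ccl21a from its copies. The annotated transcripts of Ccl21b and Gm10591 hold the 402 coding bases alone, so reads of the untranslated ends are not assigned to them. The differing base is in capitals.
Ccl21a at 84: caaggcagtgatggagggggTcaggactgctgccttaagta
Gm21541 at 84: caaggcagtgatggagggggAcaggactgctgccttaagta
Gm13304 at 84: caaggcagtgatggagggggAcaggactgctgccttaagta
Ccl21a at 194: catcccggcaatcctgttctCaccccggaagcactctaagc
Gm21541 at 194: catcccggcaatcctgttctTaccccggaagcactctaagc
Gm13304 at 194: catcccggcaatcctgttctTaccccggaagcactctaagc
No base of the coding sequence separates Gm21541 from Gm13304. Of the 31-base words of Ccl21a, 80.6% occur in another gene. The authors' deposited bounds for Gm13304 in replicate 1 reached 8.37 TPM although it was listed at 0, and those for Ccl21b reached 3.14 and 3.67 TPM.

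**Figure D3:**
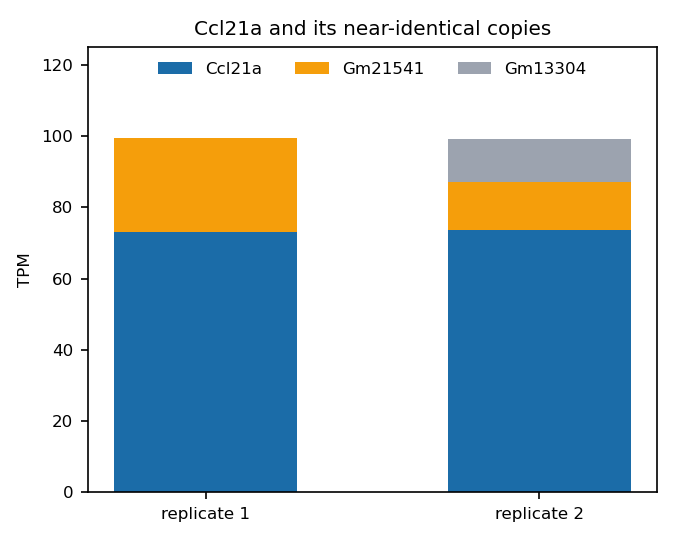
TPM of Ccl21a and of its near-identical copies, stacked for each library; Ccl21b and Gm10591 are at 0 and not drawn. The stacks reach 99.44 and 99.28 TPM, and the part above Ccl21a is all Gm21541 in replicate 1 and is split between Gm21541 and Gm13304 in replicate 2.

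Copies limited 4 further members. Ccl27a shared 57.0% of its 31-base words with other genes, chiefly Gm20878 (1.29 and 0.58 TPM), Gm13306 (0.57 and 0.55 TPM) and Ccl27b (0 in both), all far below it. It also lies opposite Il11ra1, a cytokine receptor gene at 107.46 and 106.95 TPM. All of the words of Ccl21b and Ccl27b occur elsewhere, so their values of 0 are estimates of a split and do not show that the genes are silent. Ccl19 shared 58.8% of its words, mostly with Gm2564, which was at 0.48 and 0.1 TPM. Of the 60 genes, 47 shared under 5% of their words with any other gene.

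Among the 27 detected genes, 18 had more than 1 annotated transcript, and in 10 of these the leading transcript held under 90% of the gene's TPM on average. With other units or a single library, the number was 8 to 13. The share over all detected protein-coding genes was not computed, so whether 10 is many cannot be said. Cxcl12, whose alternative last exons give several forms of the protein, had 4 annotated transcripts. Cxcl12-202, with 267 coding bases, held 81.0% and 79.8%, and Cxcl12-203, with 279 coding bases, held 13.0% and 13.8%. The retained-intron form Cxcl12-204 held 4.17% and 4.73%, and Cxcl12-201 held 1.80% and 1.70%. The order of the 4 was the same in both libraries.

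In several genes, Ccl9, Ccl6, Ccl2, Cxcl16 and Ccl27a among them, transcripts that are not annotated as simply coding took a share of the TPM. That share depended on the unit, since TPM weights short transcripts up. The short processed transcript Ccl9-202, of 398 bases, held 62.5% of the TPM of Ccl9 in replicate 1 and 56.0% in replicate 2, and the coding transcript Ccl9-201, of 3006 bases, was at 10.87 and 10.64 TPM. By expected counts the order turned, and Ccl9-202 held only 14.6% and 11.6% of Ccl9 beside 85.4% and 88.4% for Ccl9-201. The TPM of Ccl9 as a gene was lower in replicate 2, and the values of its coding transcript differed by less than those of the short one. Ccl6-202, a retained-intron form, held 40.0% and 41.6% of the TPM of Ccl6 and 25.2% and 26.4% of its counts. Ccl2-202, also a retained intron, held 15.3% and 9.95% of the TPM of Ccl2 and 20.1% and 13.4% of its counts. Cxcl16-202, marked for nonsense-mediated decay, held 45.1% and 48.7% of Cxcl16 by TPM, beside 54.9% and 45.4% for the coding Cxcl16-201, and 26.97% and 30.9% by counts, beside 73.0% and 64.1%. Ccl27a was spread over 20 transcripts, with the coding Ccl27a-206 leading at 34.9% and 34.4%.

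In Cx3cr1 and Ccr2 the transcripts have coding parts of the same length. Cx3cr1-202 held 79.3% and 73.1% of Cx3cr1 and Cx3cr1-201 the rest, each with 1062 coding bases. The 4 transcripts of Ccr2 share a coding length of 1119 bases, and Ccr2-201 held 61.2% in replicate 1 and 27.6% in replicate 2 while Ccr2-202 held 22.7% and 47.8%. Ccr2 as a gene stood at 4.15 and 4.17 TPM, so the gene value was steady where the transcript values were not. Ackr1-201, with 1002 coding bases against 522 for Ackr1-202, held 68.7% and 100% of Ackr1. Ccl20-203, with 288 coding bases against 291 for Ccl20-202, held 60.7% and 47.4% of Ccl20. These shares come from at most 66 counts per library for each gene. In Ccl25, Ackr3, Ackr4, Cx3cl1, Cxcl10, Ccl5, Ccl12 and Cxcr4, which also have several transcripts, the leading one held at least 90% of the TPM on average. By posterior mean TPM it held less in Ccl12 (78.3%), Cxcl10 (82.5%) and Ackr4 (86.5%).

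**Figure D4:**
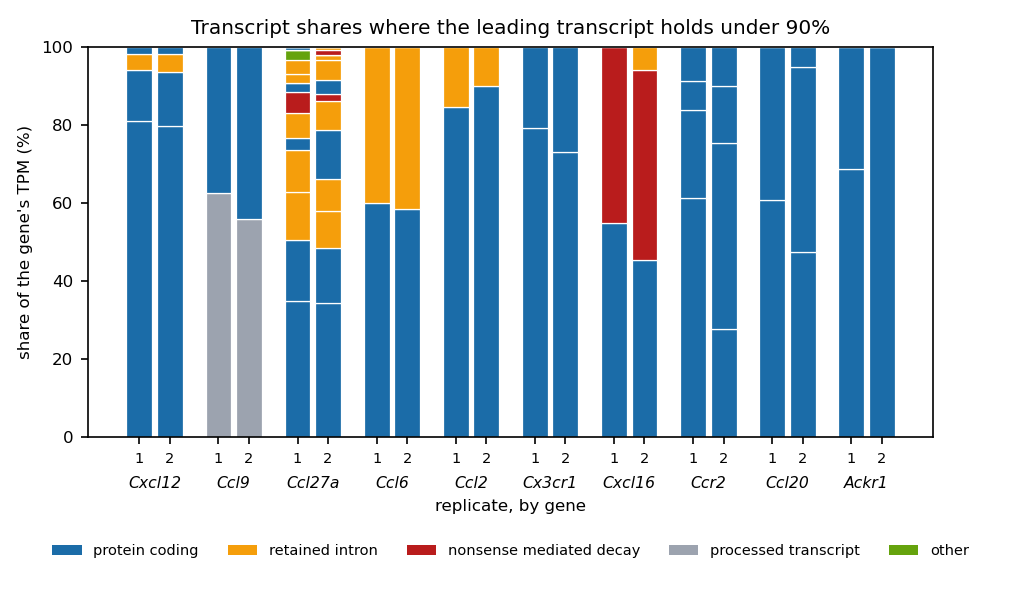
Share of each gene's TPM (%) on its annotated transcripts in replicate 1 and replicate 2, for the 10 genes whose leading transcript held under 90%; each block is a transcript, coloured by its annotated type. Cxcl12 and Ccl6 look alike in both libraries, and the blocks of Ccr2, stacked in the same order, change in size.

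Members that lie side by side in the genome differed widely in level. With gaps of at most 500000 bases, 39 of the 60 genes fell into 10 clusters, and 16 of these 39 were detected, beside 11 of the 21 genes that stand alone. The cluster chr11:82035571-82305690 holds Ccl2, Ccl7, Ccl11, Ccl12, Ccl8 and Ccl1 in that order, and ran from Ccl11 at a mean of 83.6 TPM to Ccl8 and Ccl1 at 0. The next cluster on the chromosome, chr11:83525778-83664683, holds Ccl5, Ccl9, Ccl6, Ccl3 and Ccl4, and ran from a mean of 26.6 TPM for Ccl9 to 0.310 TPM for Ccl4. In the cluster chr5:90759360-90905938, with Cxcl5, Cxcl3, Cxcl15, Cxcl1 and Cxcl2, 0 of 5 genes were detected and the sum was 0.83 and 1.04 TPM. A receptor cluster on chromosome 9 includes Ccr9, Cxcr6, Xcr1, Ccr1, Ccr3 and Ccr2, of which 3 were detected, Cxcr6, Ccr1 and Ccr2. Cx3cl1, at a mean of 18.7 TPM, lies between Ccl22 at 0.020 and Ccl17 at 0.145 TPM on chromosome 8, and Ccl24 at 10.7 TPM lies beside Ccl26 at 0 on chromosome 5.

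Promoter windows of the members were poorer in CpG than those of protein-coding genes as a whole. RefSeq promoter windows were matched for 46 of the 60 genes, as 55 windows, some of which overlap within a gene, and the window named for Ccl21b lies at another position than its GENCODE gene. At least 10 CpG pairs were found in 15 of the 55 windows (27.3%), against 58.9% of 19931 windows of protein-coding genes. The share was 9 of 26 windows of detected genes and 6 of 29 windows of genes not detected. Members with at least 10 CpG included Cxcl12, Cx3cl1, Cxcl14 and Cxcr4, detected, and Cxcl1, Cxcl2 and Cxcl3, not detected. TATAAA, on either strand, was found in 14 of the 55 windows (25.5%), against 12.0% of the windows of protein-coding genes, and CATAAA in 10 (18.2%), against 9.39%. A motif known for NF-kB, GGGA followed by 2 free bases and TTCC and searched on both strands, was found in 6 windows (10.9%), those of Cxcl10, Cxcl1, Cxcl2, Cxcl3, Ccr3 and Ccl1, against 1.42%. Of these 6 genes only Cxcl10 was detected. TATAAA and CATAAA cannot match the same 6 bases of a strand. A match is a description of the window and not evidence of binding.

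No detected member was far apart between the libraries. None of the 27 was over 2-fold apart between the libraries on the scale log2(TPM + 1), against 0.438% of all detected protein-coding genes. The median log2 ratio of replicate 2 over replicate 1 was 0.012 over the 27 genes and 0.023 over all 13474 detected protein-coding genes, and the median size of the ratio was 0.15 and 0.10. The first median depends on the scaling and its order against all genes turns with it. It was 0.070 over the 27 genes and 0.0071 over all in counts scaled by TMM, and 0.081 and 0.017 with DESeq2 size factors. The widest difference was in Ccl12, with a log2 ratio of 0.65. The 27 genes had a lower median level than all detected protein-coding genes, 7.94 against 17.8 TPM. The part of level in the size of the ratios was not tested.

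Estimated counts, scaled by the library totals, differed by more than counting error in 7 of the 27 genes, where the exact 95% interval of the ratio left out 1, against 42.2% of all detected protein-coding genes. Cxcl12, Cxcl13, Cxcl14 and Ccl12 were higher in replicate 2, in a direction that 21.8% of all genes took, and Ccl25, Ccl6 and Cx3cr1 were lower, in a direction that 20.3% took. The ratio was 1.10 for Cxcl12 (95% interval 1.06 to 1.14), 1.16 for Cxcl13 (1.07 to 1.25) and 1.23 for Cxcl14 (1.05 to 1.44). For Ccl12 it was 1.79 (1.08 to 3.04), from only 24 and 51 counts. The ratio was 0.851 for Ccl25 (0.797 to 0.909), 0.770 for Ccl6 (0.662 to 0.897) and 0.882 for Cx3cr1 (0.793 to 0.980). The interval compares these 2 libraries and not conditions, and covers counting error only. It is wider for genes with few counts, so the lower level of the 27 genes limits the comparison with 42.2%. Ccl9, at 0.927 (0.846 to 1.02), was not among the 7, although its TPM ranged from 28.97 to 24.17. Among the members below the limit, Ccr7 had 16 and 38 counts and a ratio of 2.00 (1.09 to 3.84). Xcl1 had 7 and 0, and Ccr3 had 0 and 7, and these 3 intervals also left out 1. The share of all genes below the limit with such an interval was not computed, so whether 3 is many cannot be said.

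**Figure D5:**
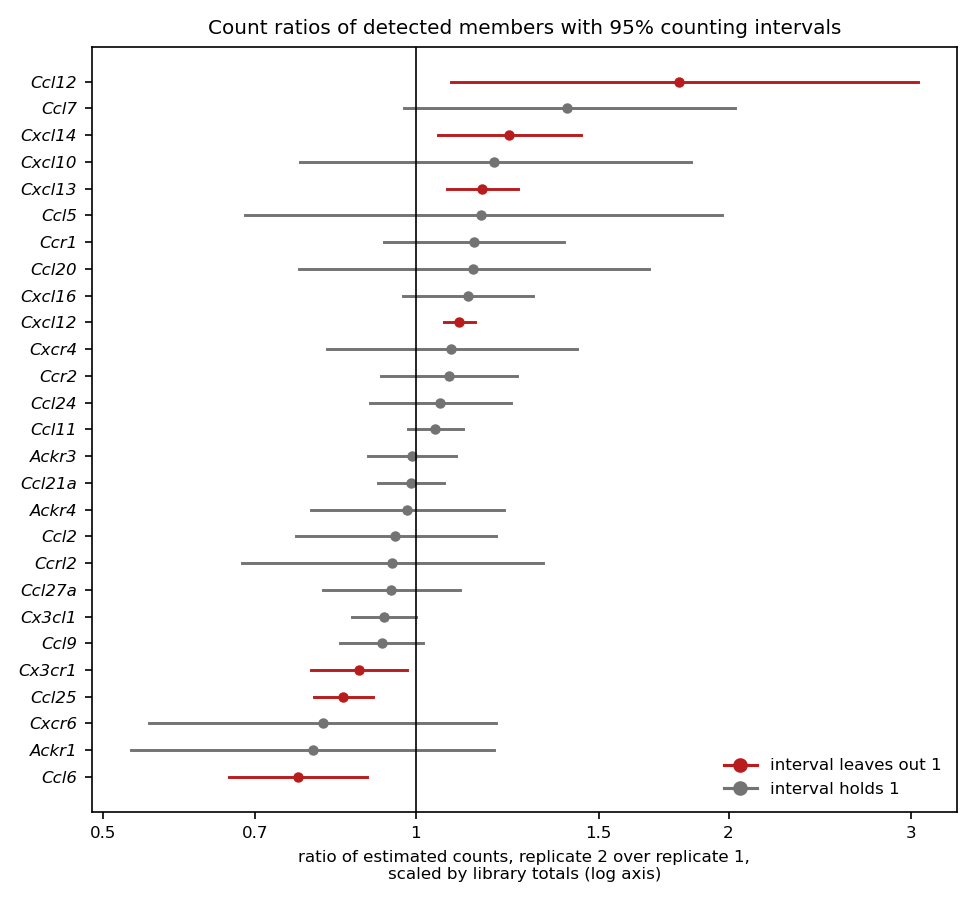
Ratio of estimated counts, replicate 2 over replicate 1 and scaled by library totals (log axis), for the 27 detected genes, with exact 95% counting intervals as bars; red marks the 7 whose interval leaves out 1. Of the red genes, 4 lie right of 1, and the widest intervals belong to genes with few counts such as Ccl12 and Ccl5.

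The libraries themselves held 34406872 and 40669822 estimated counts, of which 19173 and 23292 fell on the 60 genes, and across the whole transcriptome the common biological coefficient of variation in edgeR was 0.0969. Markers of intestinal epithelium (8 of 8 detected, summing to 3160.76 and 3026.32 TPM, led by Lgals4, Krt8, Epcam and Cdh1) and of mesenchyme and smooth muscle (8 of 8, 5109.24 and 5451.21 TPM, led by Col3a1, Acta2, Actg2 and Col1a1) were present, as the label intestine states. The 6 pancreas markers were all detected and summed to 3743.75 TPM in replicate 1 and 1332.36 TPM in replicate 2, with Ctrb1 at 2585.09 and 949.8 TPM, and the neutrophil list summed to 101.54 and 61.42 TPM. Their part in the differences between the libraries was not tested.

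Markers of cells that carry or make chemokines were set beside the members. By the limit used for them, 62.7% of all protein-coding genes were detected. The macrophage list was detected whole, 11 of 11 genes, summing to 242.46 and 227.33 TPM, with C1qb, Tyrobp, C1qa and C1qc highest, and the monocyte list 5 of 5, with Plac8, which epithelium also makes, as the leading gene. Lymphatic endothelium was detected in 6 of 6 genes, 43.86 and 50.84 TPM in sum, and blood endothelium in 8 of 8, 291.97 and 289.56 TPM. Each of the 6 lymphatic genes was higher in replicate 2, by log2 ratios of 0.024 to 0.33, as was each of the 5 monocyte genes. Each of the 6 detected neutrophil genes and of the 6 pancreas genes was lower. The share of all genes higher in replicate 2 by any amount was not computed. Of the T cell list 2 of 8 were detected, Trac and Lck, while Cd3e, Cd3g and Cd3d were below 1 TPM in both libraries. Of the B cell list 1 of 6 was detected, Cd79b, and Ms4a1 was at or near 0. The innate lymphoid and NK list had 3 of 9 detected, the dendritic cell list 5 of 9, the mast cell and basophil list 3 of 8, the megakaryocyte list 6 of 6, the neutrophil list 6 of 8 and the red cell list 7 of 7. Mesothelium (4 of 4) and enteric neurons and glia (6 of 6) were detected whole, the stomach list in 3 of 6, and the spleen list in 0 of 2.

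Most of the listed genes around the chemokine receptors were detected. Of 29 genes of receptor signalling, 25 were detected, beside 62.7% of all protein-coding genes by the same limit. The lists were chosen with earlier results of these data known, so such counts are a description only. The G protein subunits and small GTPases Gng5 (877.0 and 939.39 TPM), Cdc42 (542.51 and 583.83 TPM), Gnb1 (388.46 and 385.98 TPM) and Gnb2 (321.85 and 286.27 TPM) were the highest, and these serve most cell types. Rgs18, Rgs1 and Pik3r5 were below 1 TPM in both libraries. Among 11 genes that shed or trim chemokines, 9 were detected. Adam10 and Adam17, which cut Cx3cl1 and Cxcl16 from the cell surface, were at 54.34 and 59.81 TPM and at 22.96 and 24.41 TPM. Dpp4, a peptidase that shortens Cxcl12, was at 59.53 and 57.37 TPM, and Cpe, Mmp2 and Mmp14 were also among the 4 highest of that list.

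Of 17 genes tied to lymphoid tissue induction, the process in which stromal cells receive lymphotoxin and make Cxcl13 and Ccl21, 13 were detected. The share of all protein-coding genes detected was 62.7%. Id2 was highest at 288.22 and 366.87 TPM, a regulator that many cells use, followed by the lymphotoxin receptor Ltbr at 69.63 and 65.84 TPM, Aldh1a2, which makes retinoic acid, at 61.38 and 63.34 TPM, and Tnfrsf1a at 59.27 and 57.88 TPM. Ltb, a lymphotoxin subunit, was at 4.21 and 4.39 TPM, whereas Il7r, Lta, Tnfsf11 and Tnf were below 1 TPM in both libraries. Of 7 chemokine-like genes named otherwise, all 7 were detected. Mif, a cytokine that also binds Cxcr4, was at 1881.38 and 1835.52 TPM, Rarres2, the precursor of chemerin, at 65.07 and 63.9 TPM, and Pf4, the platelet chemokine, at 41.48 and 41.42 TPM. Gpr35, a receptor linked to chemokine binding, was at 7.55 and 7.45 TPM.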

How the data were processed

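Gene and transcript tables of 2 total RNA-seq libraries were used. Per the labels, RNA over 200 nucleotides was kept, 10 ng entered each library and spike-ins were added. Per the readme deposited with the files, reads were aligned to mm10 with GENCODE M4, and the tables have the layout that RSEM writes; no source names the quantifier, its version or its strand setting. Per the file headers, the authors deposited expected counts (reads split among genes that share them), TPM and posterior mean TPM, FPKM, interval bounds for TPM (used as a score, level not stated) and the percent of a gene's TPM on each transcript. The labels number the pools as biological replicates 1 and 2.

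Symbols, positions and transcript types came from GENCODE M21 by Ensembl identifier, and promoter windows from RefSeq (GRCm38.p6). The TPM scale includes spike-ins, and 2.16% and 1.76% of counts fell on entries that are no gene; these stayed out of the library totals. Detection needed 1 TPM in both libraries. The log2 ratio of replicate 2 over replicate 1 was computed after adding 1 TPM to each value, so low genes show less than their full change. Expected counts were rounded, and the exact Clopper-Pearson 95% interval of their ratio was computed with SciPy 1.17.1 and scaled by gene totals. It was run on simulated counts that held counting error only, which is what the interval assumes. That run cannot show how the interval behaves under further spread between pools. A count of 3 per kilobase equals 0.125 and 0.107 TPM, which sets the precision of low values. edgeR 4.0.16 and DESeq2 1.42.0 served for scaling alternatives and the spread only. Copies were sought as 31-base words of GENCODE transcripts found in other genes. With 1 group there was no test of a condition.

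The members, lists, pairs and limits were chosen with earlier results of these data known. Members are named with the exception given below; of the pathway lists the 4 highest genes, genes below the limit and genes over 2-fold apart are named, and marker lists are given mainly by counts and sums. A few genes, 1 member among them, are counted but not reported here by name or value.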

Additional observations from a re-analysis of the deposited data

How the results depend on the processing

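With a limit of 5 TPM, 15 members were detected in place of 27, and 2 pairs had both partners detected in place of 9. The other limits and units gave 25 to 37 detected members: FPKM left out Ccrl2 and Cxcr6, and posterior mean TPM gave 29. For none of these alternatives, the limit of 5 TPM included, was the share over all protein-coding genes computed. The 5 scaling and filter alternatives left no member over 2-fold apart. Dropping the filter could not change this. The members it adds lie below 1 TPM in both libraries and cannot pass 2-fold once 1 TPM is added. The number of members beyond counting error was 7 under both other scalings and 5 with a 99% interval, where Cx3cr1 and Ccl12 were no longer called. It was 8 among the 43 members with at least 10 counts in total, and for that set the share over all genes was not computed. Summed levels depend on the unit. In FPKM the ligands summed to 376.6, the receptors to 16.5 and the atypical receptors to 12.3, against 544.8, 24.0 and 17.7 in mean TPM, since FPKM has another total. The receptors summed to 24.9 in posterior mean TPM. Without the highest member of each role the TPM sums were 415.5, 15.4 and 6.79. Leaving out replicate 1 or replicate 2 gave ligand sums of 551.81 and 537.85 TPM, and 27 detected members each time. Posterior mean TPM was 0.978 to 1.30 times the TPM of the detected members, with Ackr1 at the upper end. By expected counts in place of TPM, the mean share of Ccl9-202 in Ccl9 was 13.1% against 59.2%, and Cxcl12-202 held 69.5% against 80.4% of Cxcl12. The median log2 ratio of members was 0.00092 to 0.081 over its alternatives. Ccl21a alone stood at 73.5 TPM against 99.4 for its group. The alternatives for pairs, clusters and the Ccl21 group were chosen after seeing the data. No paired analysis was possible because there was only 1 group.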
